A study of Mus musculus with 6 samples.

Results

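Mitochondrial fatty acid oxidation breaks fatty acids down to acetyl-CoA, and peroxisome proliferator-activated receptors (PPARs) are nuclear receptors that bind fatty acids and control many genes of lipid handling. The 10 genes described here were chosen by name, with earlier results of these data known. They comprise 7 enzymes (Cpt1a, Cpt2, Acadm, Acadl, Acadvl, Hadha and Hadhb) and the 3 receptors (Ppara, Ppard and Pparg). All 10 were found among the 41079 genes listed in the count and FPKM tables. They were compared between 3 control and 3 optimized RNA-seq libraries of primary mouse microglia, the resident macrophages of the brain. The cells came from C57Bl/6N neonates aged 1-3 days and grew as mixed glia in DMEM/F12 with fetal bovine serum. L-929 conditioned medium (a source of macrophage growth factor) was added repeatedly, and the microglia were shaken off. Both groups attached briefly in medium with serum and were then kept in serum-free medium, the controls without the additions named next. The labels describe the optimized cultures as stimulated with human TGFbeta, human IL34 and CX3CL1, at 100 ng/mL each. The methods of the study add cholesterol, insulin-transferrin-selenium and a collagen IV coat, and the effects of these additions cannot be told apart here. Flasks held cells of several neonates, so a library is a pool of animals.

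The 6 libraries held 20628148 to 27261839 counts. Optimized replicate 1 stood apart from the other 2 optimized libraries, with squared differences of 78.4 and 46.2 times the sampling noise per gene, against 14.5 between those 2 and 10.7 to 25.8 among the controls. Results of the members are therefore also given without it. Summed microglia markers were 7050 to 7268 CPM (a gene's counts scaled to a common library size with edgeR's TMM factors, not per length) in control and 13269 to 16419 CPM in the optimized libraries, with 8 of 10 markers higher and 2, Aif1 and Csf1r, lower. Summed endothelial markers were 78.8 to 94.4 and 271 to 349 CPM, almost all of it Flt1, with Cldn5 at 0 in every control library. Neuron markers summed to at most 4.26 CPM in any library, pericyte markers to at most 3.13, astrocyte markers to at most 30.1, fibroblast markers to at most 78.7 and oligodendrocyte markers to at most 190. Sums were higher in all 3 optimized libraries for neuron and oligodendrocyte markers and lower in all 3 for astrocyte markers. The part of other cells in the results was not tested. In bulk RNA, fewer cells of a type and less RNA per cell cannot be told apart.

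Long-chain fatty acids enter mitochondria through a carnitine shuttle. CPT1 on the outer membrane makes acylcarnitines, a carrier exchanges them across the inner membrane, and CPT2 turns them back into acyl-CoA. Chain-length-specific acyl-CoA dehydrogenases (ACADVL, ACADL and ACADM) then start each round of oxidation, and the trifunctional protein of HADHA and HADHB carries out the remaining steps on long chains. PPARs bind DNA together with retinoid X receptors (RXRs). PPARα is best known for driving oxidation in liver, PPARδ is expressed in most tissues, and PPARγ is the fat cell receptor that is also found in macrophages.

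Among the members, Cpt1a, Ppard and Acadl were higher and Pparg was lower under the optimized conditions, and the other 5 tested genes did not pass the threshold. Pparg changed the most, to a level 9.33-fold below control, while Cpt1a rose 1.86-fold and Ppard 1.65-fold. Ppara had too few counts to be tested. Thus 4 of the 9 tested members were called (edgeR quasi-likelihood test, Benjamini-Hochberg adjusted p under 0.05), beside 29.8% of all 14618 genes tested. In the single directions, 3 members were higher beside 14.7% of genes, and 1 was lower beside 15.2%. The median log2 fold change was 0.02 over the 9 members and 0.01 over all genes tested. In the 4 called members every optimized library lay on one side of every control library, beside 43.9% of all genes tested (21.4% higher and 22.5% lower), and in the other 5 the groups overlapped. Without optimized replicate 1 the log2 fold changes of the 4 were 0.89 for Cpt1a, 0.44 for Acadl, 0.77 for Ppard and -3.23 for Pparg, and all 4 remained called. Those of the other members were 0.03 for Cpt2, -0.02 for Acadm, -0.01 for Hadha, 0.07 for Hadhb and 0.29 for Acadvl, so that Cpt2 changed sign without being called and Acadvl was called.

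**Figure D1:**
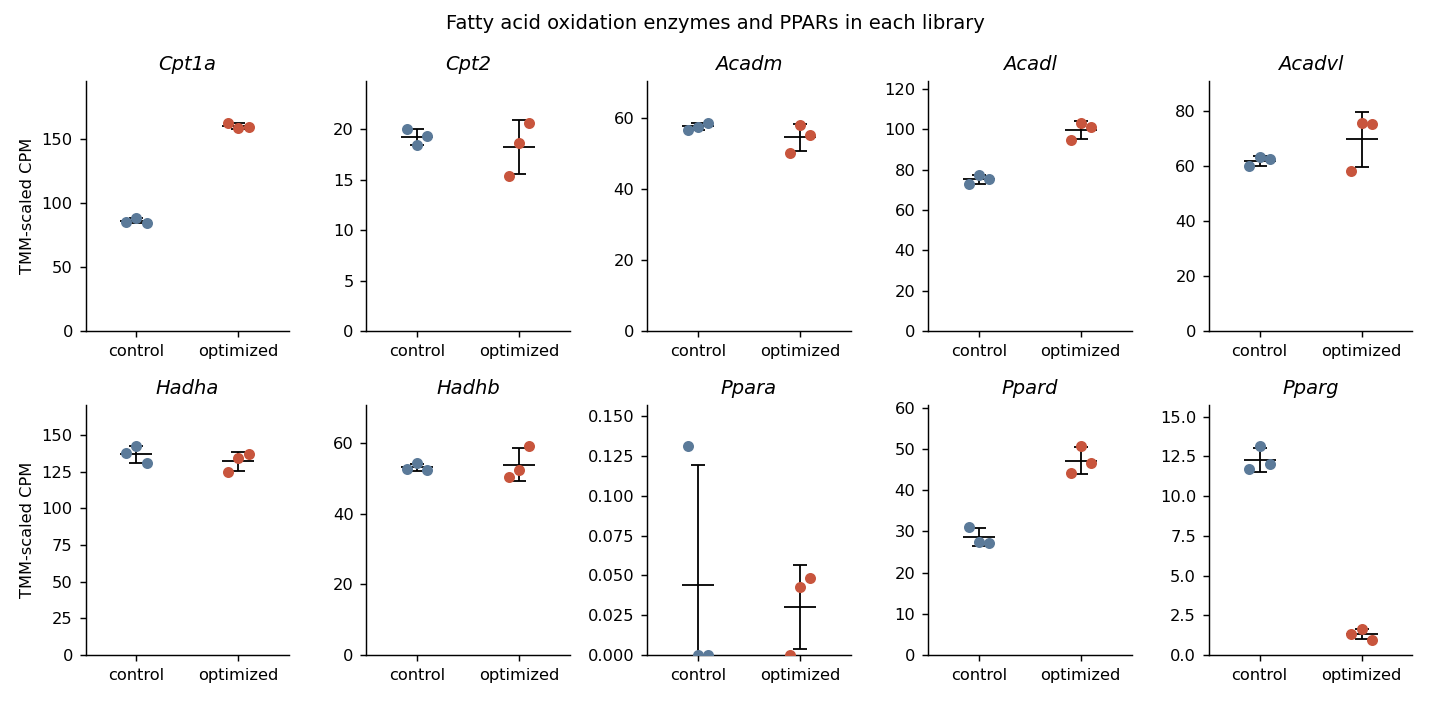
TMM-scaled CPM of the 10 members in each library, with points for single libraries and bars for the mean and SD of 3 control or 3 optimized libraries. The control and optimized points of Cpt1a, Acadl, Ppard and Pparg do not overlap, with Cpt1a at 84.8 to 88.3 against 158 to 163 CPM and Pparg at 11.7 to 13.1 against 0.967 to 1.62 CPM.

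Cpt1a, the liver-type CPT1 and the rate-limiting step of the shuttle, lies on the plus strand at chr19:3371853-3437996 (GRCm39). Its levels were 85.3, 88.3 and 84.8 CPM in control replicates 1 to 3 and 163, 158 and 160 CPM in the optimized replicates 1 to 3. The groups did not overlap, and the spread within each was small beside the gap. The log2 fold change was 0.90 (SE 0.08, 95% interval 0.73 to 1.06, edgeR adjusted p = 1.4e-05). Cpt2, at chr4:107751473-107780812 on the minus strand, had 20.0, 18.4 and 19.3 CPM in the control and 15.3, 18.7 and 20.7 CPM in the optimized libraries. The groups overlapped, and the lowest value was that of optimized replicate 1. Its log2 difference was -0.08 (SE 0.12, 95% interval -0.35 to 0.19, edgeR adjusted p = 0.69). Its exons share 233 bases with those of Czib on the opposite strand.

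The ratio of the 2 shuttle enzymes within a library restates these values and is not separate evidence. The Cpt1a to Cpt2 FPKM ratio was 1.98, 2.23 and 2.05 in control and 4.94, 3.96 and 3.60 in optimized libraries. The ratios did not overlap, and the log2 difference was 0.99, with a two-sided exact permutation p of 0.1, the smallest that 3 against 3 libraries can give. Without optimized replicate 1, which had the highest ratio, the log2 difference was 0.86.

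The promoters are shown for Cpt1a, Cpt2 and Ppard, because the first and the last rose and Cpt2, of the same shuttle as Cpt1a, was not called. Each run is the 250 bases before the Ensembl canonical start, read 5' to 3' on the strand of the gene from GRCm39, with the nuclear receptor element AGGTCA on either strand in capitals. The windows are chr19:3373021-3373270 (plus strand), chr4:107780813-107781062 (minus strand) and chr17:28451424-28451673 (plus strand), in this order.
Cpt1a: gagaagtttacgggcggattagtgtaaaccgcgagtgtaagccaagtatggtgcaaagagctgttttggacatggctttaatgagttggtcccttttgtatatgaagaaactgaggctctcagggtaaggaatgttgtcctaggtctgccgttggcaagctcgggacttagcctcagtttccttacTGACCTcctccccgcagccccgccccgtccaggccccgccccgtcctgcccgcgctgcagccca
Cpt2: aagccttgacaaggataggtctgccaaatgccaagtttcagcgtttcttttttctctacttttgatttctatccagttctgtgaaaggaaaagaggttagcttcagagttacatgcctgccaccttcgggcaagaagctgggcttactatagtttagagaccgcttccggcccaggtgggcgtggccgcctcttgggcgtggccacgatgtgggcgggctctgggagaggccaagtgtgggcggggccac
Ppard: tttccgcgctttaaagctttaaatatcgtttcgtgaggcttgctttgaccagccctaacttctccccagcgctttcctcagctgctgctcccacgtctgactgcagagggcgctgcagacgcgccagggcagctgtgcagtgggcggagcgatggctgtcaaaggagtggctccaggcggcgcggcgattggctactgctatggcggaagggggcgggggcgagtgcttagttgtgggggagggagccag
In the window of Cpt1a, 188 bases also lie in exons of the annotated gene Gm58963, and the windows of Cpt2 and Ppard hold no annotated exon. Windows of 250 bases before and 50 after the start were searched on both strands in protein-coding genes with an Ensembl canonical start. The element was present in 3 of the 10 members (Cpt1a, Acadvl and Hadha) and in 15.1% of 21751 promoters. PPAR and RXR pairs prefer a direct repeat of this element, with 1 base between its copies. The full repeat of AGGTCA, which contains the single element, was in none of the 10 members and in 0.046% of all promoters. The repeat of the looser AGGNCA was also in none of them and in 0.405% of all promoters. The SMAD-binding sequence AGCCAGACA was absent from all 10 windows and present in 0.4% of promoters. These are matches of letters in a short window and not sites of binding. Several of the other windows are largely annotated exon. Of the 250 bases before the start, 250 lie in exons for Pparg, 213 for Ppara and 202 each for Hadha and Hadhb. The windows of Hadha and Hadhb also overlap each other.

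Of the dehydrogenases, only Acadl was called. Acadl encodes the long-chain enzyme and lies at chr1:66868267-66902633 (minus strand). It had 73.0, 77.2 and 75.3 CPM in the control and 94.6, 103 and 101 CPM in the optimized libraries. Every optimized library was above every control library, with a log2 fold change of 0.41 (SE 0.08, 95% interval 0.23 to 0.59, edgeR adjusted p = 0.0033). Acadvl, the very-long-chain enzyme at chr11:69900853-69906270 (minus strand), had 59.9, 63.2 and 62.5 CPM in the control and 58.1, 75.6 and 75.2 CPM in the optimized libraries. Optimized replicate 1 was the lowest of all 6, below the controls, while the other 2 were above them. The log2 difference was 0.17 (SE 0.11, 95% interval -0.08 to 0.42, edgeR adjusted p = 0.29). Without optimized replicate 1 it was 0.29 (adjusted p = 0.0088), past the threshold. The exons of Acadvl share 1504 bases with Dvl2 on the opposite strand. Acadm, the medium-chain enzyme at chr3:153627989-153650317 (minus strand), had 56.8, 57.5 and 58.8 CPM in the control and 50.3, 58.1 and 55.4 CPM in the optimized libraries. The groups overlapped, and optimized replicate 1 was again the lowest. The log2 difference was -0.08 (SE 0.09, 95% interval -0.27 to 0.11, edgeR adjusted p = 0.54).

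Neither subunit of the trifunctional protein passed the test. Hadha, the alpha subunit at chr5:30323302-30360187 (minus strand), had 138, 142 and 131 CPM in the control and 125, 134 and 137 CPM in the optimized libraries. Hadhb, the beta subunit at chr5:30359204-30389997 (plus strand), had 52.8, 54.4 and 52.6 CPM in the control and 50.4, 52.5 and 59.2 CPM in the optimized libraries. In both genes the groups overlapped. The log2 differences were -0.05 for Hadha (95% interval -0.23 to 0.13) and 0.02 for Hadhb (95% interval -0.18 to 0.22), with edgeR adjusted p of 0.69 and 0.90. The 2 genes lie head to head, with 64 bases between their canonical starts, and their exons share 932 bases on opposite strands. The strand setting of the counting is not given in the sources used here, so reads in the shared bases could belong to either gene. The Hadha to Hadhb ratio differed between the groups by -0.07 on the log2 scale (two-sided exact permutation p = 0.2).

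**Figure D2:**
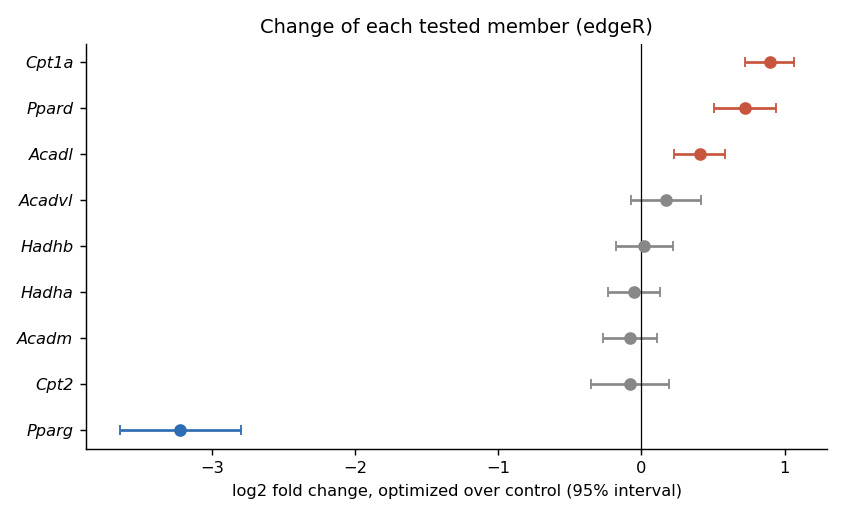
Log2 fold change of the 9 tested members, optimized over control, with the 95% interval of each from edgeR's quasi-likelihood fit. The intervals of Cpt1a, Acadl and Ppard lie above 0 and that of Pparg, at -3.65 to -2.80, lies below it, while those of the other 5 include 0.

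The 3 receptors differed in level and in direction. Ppard, at chr17:28451674-28520448 (plus strand), had 31.2, 27.5 and 27.1 CPM in the control and 44.2, 50.7 and 46.6 CPM in the optimized libraries. Each optimized library was above each control library, with a log2 fold change of 0.72 (SE 0.10, 95% interval 0.50 to 0.94, edgeR adjusted p = 0.00033). Pparg, at chr6:115337675-115468268 (plus strand), had 11.7, 13.1 and 12.01 CPM in the control and 1.33, 1.62 and 0.967 CPM in the optimized libraries, from 268, 322 and 328 counts and from 28, 38 and 20 counts. No library of one group came near the other. The log2 fold change was -3.22 (SE 0.19, 95% interval -3.65 to -2.80, edgeR adjusted p = 1.3e-06). Ppara, at chr15:85618656-85687067 (plus strand), had 3, 0 and 0 counts in the controls and 0, 1 and 1 under the optimized conditions. No library exceeded the limit of 3 counts that a count of 0 allows, so no fold change is given.

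Ppard was thus the most abundant receptor per length in both conditions. By FPKM, which divides by gene length, Pparg made up 28.0%, 33.0% and 31.4% of the summed level of the 3 receptors in control libraries. In optimized libraries its share was 3.00%, 3.19% and 2.10%, and Ppard made up almost all the rest. The Pparg to Ppard FPKM ratio was 0.446 ± 0.053 (SD, n = 3) in control and 0.0285 ± 0.0062 (SD, n = 3) in optimized libraries. The ratios did not overlap, with a log2 difference of -3.99 (two-sided exact permutation p = 0.1, the smallest possible).

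**Figure D3:**
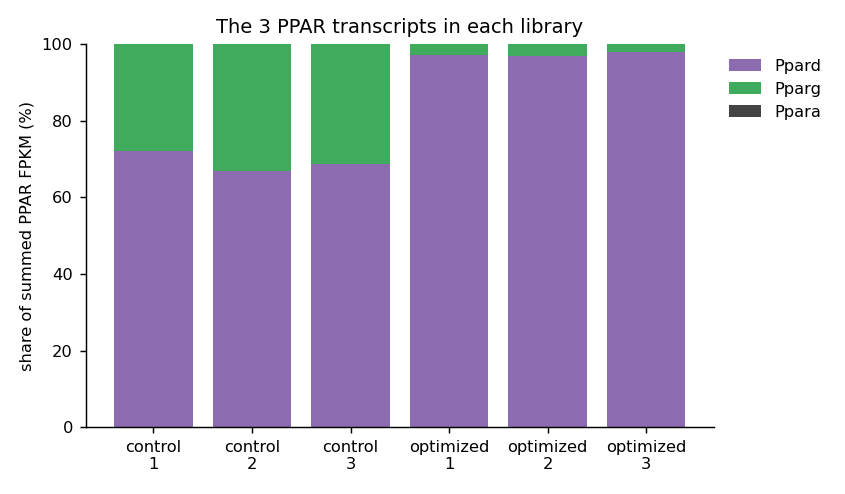
Share of each receptor, in percent, in the summed FPKM of Ppara, Ppard and Pparg, 1 bar per library. The share of Pparg is 28.0% to 33.0% in the 3 control bars and 2.10% to 3.19% in the 3 optimized bars, and Ppara is too small to see.

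The order of the members by FPKM shifted with the conditions. In control libraries it ran from Hadha (51.2 ± 3.96, SD, n = 3) over Acadl (39.2 ± 1.85), Acadvl (28.7 ± 1.17), Acadm (28.4 ± 0.649), Cpt1a (17.4 ± 0.931), Hadhb (9.14 ± 0.463), Ppard (8.86 ± 0.902) and Cpt2 (8.32 ± 0.439) to Pparg (3.93 ± 0.325). The libraries of Acadvl and Acadm overlapped, as did those of Hadhb and Ppard and those of Ppard and Cpt2, so these neighbours were not ordered beyond their spread. In optimized libraries Acadl (47.2 ± 1.25, SD, n = 3) and Hadha (44.8 ± 2.05) overlapped at the top. They were followed by Cpt1a (29.3 ± 1.59) and Acadvl (29.3 ± 3.54), which also overlapped, then Acadm (24.4 ± 0.978) and Ppard (13.2 ± 0.364). Hadhb (8.42 ± 0.819) overlapped with Cpt2 (7.14 ± 1.01), and Pparg (0.377 ± 0.083) was the lowest of the tested members. Ppara was at the floor in both groups. Of all genes tested, 77.7% had a lower FPKM than Cpt1a in control and 87.9% in optimized libraries. For Pparg the share fell from 44.9% to 12.1%.

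**Figure D4:**
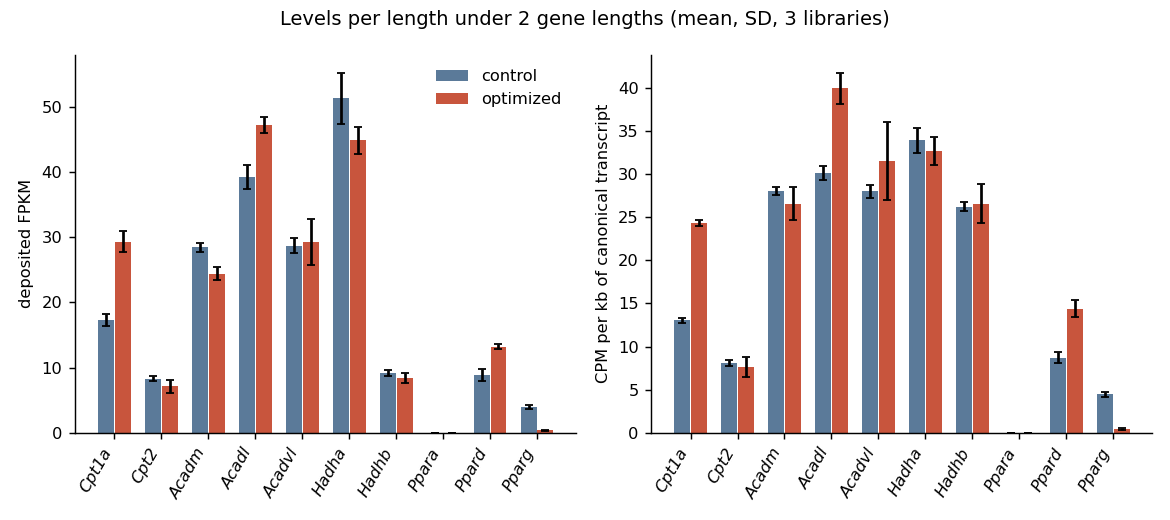
Levels of the 10 members per length, as deposited FPKM on the left and as CPM per kb of canonical transcript on the right, with bars for the mean and whiskers for the SD of 3 libraries. Cpt1a goes from 17.4 to 29.3 FPKM and Pparg from 3.93 to 0.377, and Hadhb is far below Hadha on the left only.

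The positions of Hadhb and Cpt1a in this order rest on the gene length. The deposited FPKM used a length for Hadhb that was 2.18 times that of Hadha, whereas its canonical transcript, at 2033 bases, is shorter than the 4038 bases of Hadha. The Hadha to Hadhb FPKM ratio was 5.60 ± 0.161 (SD, n = 3) in control libraries. Per base of canonical transcript it was 1.29 ± 0.037 (SD, n = 3). By FPKM Cpt1a went from rank 5 in control to rank 3 in optimized libraries, above Acadm, but per base of canonical transcript it was at rank 6 in both, and its optimized libraries overlapped with those of Acadm. The fold change of a single gene does not depend on the length.

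The other genes of these pathways moved in both directions. The lists, like the members, were chosen with earlier results of these data known, and they are described by counts and medians. For acyl-CoA activation and the carnitine shuttle, 13 of 14 genes were tested. Of these, 1 was higher, 3 were lower and 9 were not called, beside 14.7% higher and 15.2% lower over all genes. The median log2 fold change of the list was 0.01. The 1 higher gene was Slc27a1, a fatty acid transport protein, with 98.0 ± 3.06 CPM in the control and 202 ± 3.04 CPM in the optimized libraries (SD, n = 3 each, log2 fold change 1.04, edgeR adjusted p = 5.7e-06). The 3 lower genes were acyl-CoA synthetases, namely Acsl3 (-0.72), Acsl4 (-0.44) and Acsl1 (-0.33), with edgeR adjusted p of 0.00078, 0.012 and 0.022. Acsl3 shares 842 exon bases with Utp14b on the same strand, which had 0.274 times its counts. Utp14b was itself lower (log2 fold change -1.20, edgeR adjusted p = 0.00073), and the part of its reads in the fall of Acsl3 was not tested. Acsl4 was not called without control replicate 2 (adjusted p = 0.059) or optimized replicate 3 (0.058), nor Acsl1 without any 1 control library (0.052 to 0.093). Slc25a20, the acylcarnitine carrier between the 2 CPT enzymes, differed by 0.30 (adjusted p = 0.089) and was called higher without optimized replicate 1 (0.39, adjusted p = 0.0078), and the carnitine transporter Slc22a5 by 0.19 (adjusted p = 0.30). Malonyl-CoA inhibits CPT1. Mlycd, which degrades it, differed by 0.04 (adjusted p = 0.85), and Acacb, which makes it at mitochondria, had 2 to 15 counts per library and was not tested.

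Among the other 17 genes of mitochondrial oxidation, 6 were higher, none was lower and 11 were not called, beside 14.7% higher and 15.2% lower over all genes, with a median of 0.18. Echs1, the short-chain enoyl-CoA hydratase, had 68.3 ± 7.55 CPM in the control and 124 ± 18.2 CPM in the optimized libraries (SD, n = 3 each, log2 fold change 0.86, edgeR adjusted p = 0.00058). Acaa2, the mitochondrial thiolase, rose by 0.62 (edgeR adjusted p = 0.0011), and so did Acad10, a dehydrogenase family member (0.62, adjusted p = 0.0056). The other 3 higher genes had log2 fold changes of 0.42 to 0.60. The lowest of these, Acad11, named after its values were seen, was not called in 6 of 15 alternatives, among them without control replicate 1 (adjusted p = 0.078), control replicate 2 (0.076) or optimized replicate 3 (0.061). The lowest differences were those of Acad12 (-0.41, adjusted p = 0.087), Acadsb (-0.28, adjusted p = 0.066) and Acad9 (-0.18, adjusted p = 0.20). The absence of lower genes depended on the settings. Acad12 was called lower in 6 of 15 alternatives, among them without optimized replicate 2 (-0.56, adjusted p = 0.025), and Acadsb in 5 of 15, among them without optimized replicate 1 (-0.35, adjusted p = 0.011). Both were called lower with library size alone and in the 3 limma fits on FPKM. Echs1 shares 142 exon bases with Paox, and Acad10 shares 422 with Brap, on the opposite strand. Paox had 0.29 times the counts of Echs1 and was itself higher (log2 fold change 0.87, edgeR adjusted p = 7.8e-05). Brap had 6.2 times the counts of Acad10 and was not called (0.19, adjusted p = 0.11). The part of these reads in the rises of Echs1 and Acad10 was not tested.

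Peroxisomes shorten very long chains by a separate set of enzymes. Of its 18 genes, 17 were tested, 3 were higher, 2 were lower and 12 were not called, beside 14.7% higher and 15.2% lower over all genes. The median log2 fold change of the list was 0.01. Abcd2, a peroxisomal importer of very-long-chain acyl-CoA, had 54.6 ± 0.33 CPM in the control and 165 ± 5.46 CPM in the optimized libraries (SD, n = 3 each, log2 fold change 1.60, edgeR adjusted p = 4.5e-07). Pecr, a peroxisomal enoyl-CoA reductase, rose by 1.47 and Acox3, an acyl-CoA oxidase, by 0.72 (edgeR adjusted p = 0.00016 and 0.00013). Acaa1a, a peroxisomal thiolase, fell by 0.53 (edgeR adjusted p = 0.0014). Acaa1a is a close copy of Acaa1b, so the counts of either are uncertain. Acaa1a also shares 628 exon bases with Myd88 on the opposite strand, which had 0.526 times its counts. Myd88 was itself lower (log2 fold change -0.89, edgeR adjusted p = 0.00051), and the part of its reads in the fall of Acaa1a was not tested. Acot8, a peroxisomal thioesterase, differed by -0.31 (adjusted p = 0.092), and was called lower without optimized replicate 2 (-0.43, adjusted p = 0.031).

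**Figure D5:**
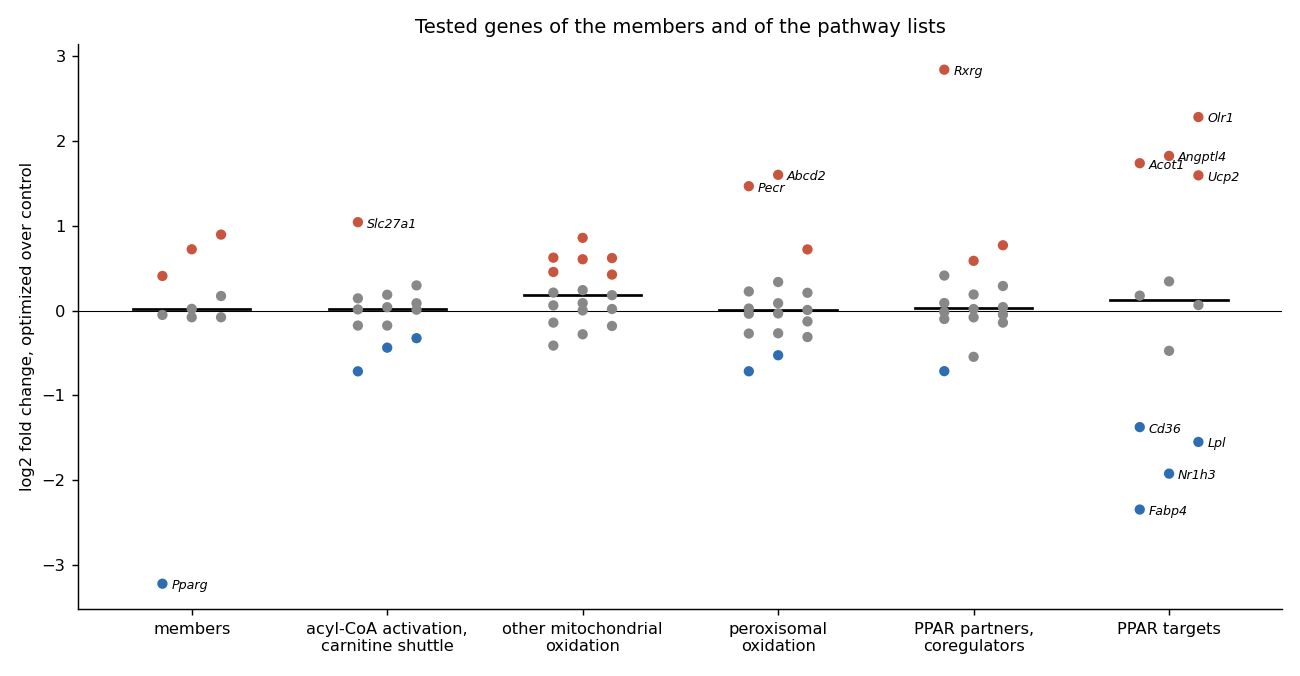
Log2 fold change, optimized over control, of every tested gene among the members and in the 5 pathway lists, 1 point per gene, with called genes in red (higher) or blue (lower), others in grey, and a line at the median of each list. The medians lie between 0.01 and 0.18, and grey points below 0 in other mitochondrial oxidation include Acad12 (-0.41) and Acadsb (-0.28), which were called lower in 6 and 5 of 15 alternatives.

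Of the 17 partners and coregulators of the PPARs, 16 were tested, 3 were higher, 1 was lower and 12 were not called. Over all genes 14.7% were higher and 15.2% were lower, and the median log2 fold change of the list was 0.03. Rxra, a DNA-binding partner of all PPARs, had 156 ± 12.8 CPM in the control and 178 ± 3.68 CPM in the optimized libraries (SD, n = 3 each, log2 difference 0.19, edgeR adjusted p = 0.14). Rxrg had 1, 8 and 2 counts in the controls and 14, 26 and 31 counts under the optimized conditions (log2 fold change 2.84, SE 0.62, edgeR adjusted p = 0.0064). With so few counts its size was poorly fixed, from 0.39 with limma on log2(FPKM + 1) to 4.07 without control replicate 2. Crebbp, a histone acetyltransferase, rose by 0.77 (edgeR adjusted p = 0.0025). Lpin1, a phosphatidate phosphatase and coactivator, fell by 0.72 (edgeR adjusted p = 0.00071). Ppargc1a, the coactivator best known for oxidative metabolism, had at most 8 counts in a library and was not tested. The related Ppargc1b differed by -0.55 (adjusted p = 0.14) and the coactivator Ncoa2 by -0.14 (adjusted p = 0.48). Without optimized replicate 1 both were called lower (-0.85 and -0.33, edgeR adjusted p = 0.0049 and 0.0057).

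Of 22 known PPAR target genes, 12 were tested, and 4 were higher, 4 were lower and 4 were not called, beside 14.7% higher and 15.2% lower over all genes, with a median of 0.12. Fabp4, a fatty acid binding protein, had 76.1, 89.3 and 103 CPM in the control and 13.2, 22.2 and 17.3 CPM in the optimized libraries (log2 fold change -2.35, edgeR adjusted p = 8e-06). Lpl, lipoprotein lipase, fell from 4891 ± 153 to 1671 ± 157 CPM (SD, n = 3 each, log2 fold change -1.55, edgeR adjusted p = 5.2e-06). Nr1h3, the liver X receptor alpha, fell by 1.92 on the log2 scale (edgeR adjusted p = 2.3e-05), and it shares 256 exon bases with Acp2, which had 37.2 times its counts. Acp2 was itself lower (log2 fold change -1.02, edgeR adjusted p = 8.9e-06), and the part of its reads in the fall of Nr1h3 was not tested. Cd36, a fatty acid transporter named after its values were seen, fell by 1.38 (edgeR adjusted p = 1.6e-06). The higher genes were Olr1, an oxidized LDL receptor (2.28), Angptl4, an inhibitor of lipoprotein lipase (1.82), Acot1, an acyl-CoA thioesterase (1.74), and Ucp2, a mitochondrial carrier (1.59, named after its values were seen). Their edgeR adjusted p were 3.9e-06, 7.4e-05, 0.00025 and 1.2e-05. Acot1 has a near-identical copy in Acot2, which leaves the division of its counts uncertain. Pdk4, a common marker of PPAR activation, had at most 16 counts in a library and was not tested.

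For Cpt1a, Ppard and Pparg, the most similar patterns were sought among the 83 other tested members and listed genes. The measure was the root mean square distance of log2 CPM centred on each gene over the 6 libraries. Cpt1a was nearest to Slc27a1 (0.078) and Acox3 (0.11), and Ppard to Acad10 (0.085) and Acox3 (0.11). Pparg was nearest to Fabp4 (0.49) and Nr1h3 (0.69), both at larger distances. The distance includes the difference between the groups, so it is not separate evidence of a shared pattern. Fabp4 and Nr1h3 had the lowest log2 fold changes of the tested PPAR targets (-2.35 and -1.92). The shared exon bases of Nr1h3 and Acp2 leave the pattern of Nr1h3 uncertain.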

How the data were processed

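RNA from 3 control and 3 optimized microglia cultures was sequenced. The authors aligned the reads with HISAT2 to mm39 (GRCm39), and gene counts came from featureCounts. They deposited raw counts per gene and FPKM values for the same 6 libraries. Versions, annotation, and strand setting are not given in the sources used here. Each deposited FPKM equalled its count over 1 factor per gene and 1 factor per library.

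Samples were grouped by their labels. Counts were compared in R 4.3.3 with edgeR 4.0.16 (filterByExpr, TMM, quasi-likelihood test, Benjamini-Hochberg adjustment, threshold 0.05) over 14618 genes. This procedure was first run on simulated counts with known changes, drawn with a single dispersion for all genes and with no library that stood apart. The study names no test for these libraries. The SE was the log2 fold change divided by the square root of F, and the common dispersion was 0.0164. A count of 0 allows up to 3 counts, and limits cover counting error only. P-values measure the spread between these libraries. Ratios were compared with exact permutation tests in scipy 1.17.1. Alternatives used limma 3.58.1 and DESeq2 1.42.0, other scalings and filters, a replicate block and each library left out. Limma used log2(FPKM + 1) or log2(FPKM + 0.1), a scale on which changes of low genes come out too small.

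Members and lists were chosen with earlier results of these data known. The genes named are all members, the 3 highest and 3 lowest tested genes of each list, genes that adjoin a member in the pathway (Acacb, Mlycd, Slc25a20, Rxra, Ppargc1a and Ppargc1b), and the 2 listed genes nearest in pattern to Cpt1a, Ppard and Pparg. Some genes under this rule are not reported here. Cell type markers are given as sums. Positions and promoters come from GENCODE M39 on GRCm39, the build of the files, in which 35087 of 41079 symbols were found.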

Additional observations from a re-analysis of the deposited data

How the results depend on the processing

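The calls of Cpt1a, Acadl, Ppard and Pparg were kept in all 15 alternatives, with log2 fold changes of 0.72 to 0.91, 0.26 to 0.44, 0.53 to 0.78 and -3.42 to -1.84, and Cpt2, Hadha and Hadhb were called in none. Acadm was called lower only by limma on log2(FPKM + 1) (-0.21, adjusted p = 0.049), which made 2 members lower, and Acadvl was called only without optimized replicate 1. With library size alone the median log2 fold change of all genes tested was -0.12. Relative to that median the log2 fold changes were 0.89 for Cpt1a, 0.40 for Acadl, 0.71 for Ppard and -3.24 for Pparg. Of all genes called, 49.1% were higher with TMM, 32.3% with library size alone and 28.3% to 31.3% with the limma fits on FPKM. Peroxisomal oxidation had 8 calls, against 5, with library size alone and with each of the 3 limma fits. PPAR partners had 2 calls, against 4, with limma on genes whose mean FPKM reached 1. Leaving out 1 library gave 2 to 5 calls in acyl-CoA activation and the carnitine shuttle, against 4, the 2 being without control replicate 2. Same-numbered libraries did not deviate together throughout (r = 0.27, -0.01 and 0.19), and control replicates 2 and 3 did not correlate best with their own numbers. With the replicate number as a block, 4924 genes were called, against 4360, with 7 PPAR partners against 4 and the same number of members. The levels per canonical transcript length were chosen after seeing the data, and they gave Hadha to Hadhb ratios of 1.29 in control and 1.23 in optimized libraries, against 5.60 and 5.34 by FPKM. The causes were not tested, other than the length in this last case. Ppara, at no more than 3 counts in a library, is beyond what this depth can compare.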
